A study of Mus musculus with 198 samples.

Results

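Genes for voltage-gated sodium and calcium channels were examined for DNA methylation in the cortex of mice that lack 1 copy of Dnmt3a, the gene for a DNA methyltransferase. Members were chosen by symbol alone: the sodium channel genes (Scn followed by a number and a or b) and the calcium channel genes for alpha1, alpha2delta and beta subunits (Cacna1, Cacna2d and Cacnb). The rule matched 31 of 34193 genes in the table, 13 for sodium and 18 for calcium channels. All 31 had values in all 8 deeply sequenced animals, as did 21302 genes for CA sites and 21060 for CG sites. The brain sodium channel gene Scn2a stands in the table under its older symbol Scn2a1, which the rule does not match, and is given separately.

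Whole-genome bisulfite sequencing was applied to 198 samples of this series, of which 8 deep libraries of cortex give values per gene. They came from C57BL/6J mice aged 8 weeks, 4 wild type (WT, animals 695, 046-1, 651-3 and 047-2) and 4 heterozygous for the Dnmt3a knockout (hKO, animals 694, 046-2, 651-2 and 047-1). Animals 695, 046-1, 694 and 046-2 were male and the others female, and the labels describe the tissue as taken from littermates. How the knockout allele was made is not given in the sources used here, and gene methylation does not check its deletion. Each value gives, in percent, how much of the cytosine within a gene was read as methylated, at CA sites (mCA) or at CG sites (mCG). The labels give a coverage of 6.4 to 7.8 genome equivalents, but the table used here holds no counts, so no counting interval could be computed. Cortex is a mixture of cells: a lower share of a highly methylated cell type and less methylation per cell cannot be told apart in these data. Methylation gives no level of expression, so the tissue label could not be checked by expressed markers.

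Voltage-gated sodium channels open on depolarisation and carry the rising phase of the action potential, and voltage-gated calcium channels turn depolarisation into calcium entry that drives transmitter release, contraction and gene expression. Each channel is built around a single large pore-forming subunit (alpha for sodium, alpha1 for calcium) that is joined by smaller auxiliary subunits. Different genes of both families serve brain, heart, skeletal muscle, sensory nerve and retina. In neurons, DNMT3A writes mCA over genes after birth, and genes highly expressed in neurons usually carry less mCA.

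mCA was lower in hKO than in WT cortex in 30 of the 31 channel genes, and in none was it higher (limma across all genes, Benjamini-Hochberg adjusted p under 0.05), but with each library's median gene subtracted 10 were lower and 7 higher. Of all genes tested, 72.1% were lower by the same rule and 0.0329% higher, so most genes fell with the channel genes. All 31 channel genes had a lower mean, as did 97.1% of genes, and in 28 every hKO animal lay below every WT animal, against 64.6% of genes. The median channel gene held 2.20% mCA in WT and 1.20% in hKO cortex, and the median over all genes was 2.07% and 1.15%. The channel genes kept a median of 55.3% of their WT level, with 49.1% in Scn4b and 65.1% in Cacnb1, and all genes kept a median of 56.6%. Subtracting each library's median takes away a shift of -0.911 points between the genotypes, and 24.8% and 30.6% of all genes were then lower and higher. That scaling takes the same number of points from every gene, whatever its level: 13 channel genes fell by less than that shift and turned positive (among them Scn1a, Scn3a, Scn8a, Scn2b, Scn3b, Cacna1a, Cacna1b, Cacna1e, Cacna1f, Cacna2d1, Cacnb1 and Cacnb4). Differences given for single genes are in points before that subtraction.

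**Figure D1:**
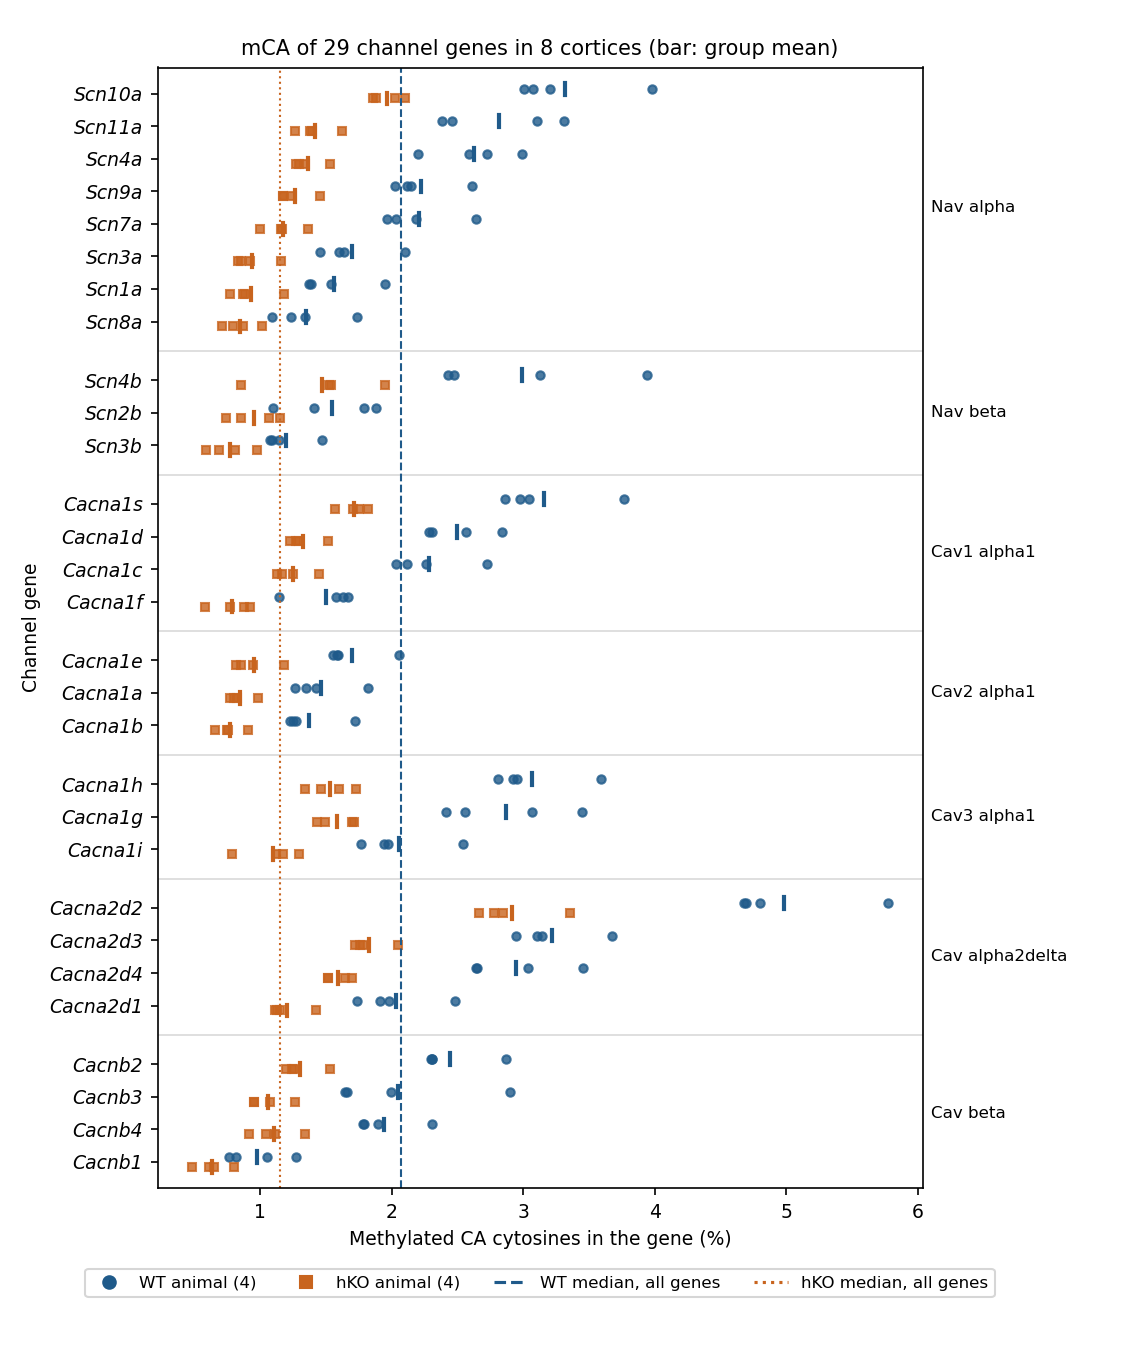
mCA in percent (horizontal axis, which does not start at 0) of 29 of the 31 channel genes (vertical axis, grouped by subunit role and ordered by WT mean) in the 4 WT animals (circles) and the 4 hKO animals (squares), with short bars at the group means and vertical lines at the median of all genes, 2.07% in WT and 1.15% in hKO. Squares lie left of circles in 27 of the 29 genes. The groups overlap in Cacnb1 and Scn2b, and Cacna2d2 stands furthest right.

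The range among the genes was wider than any difference between genotypes. WT means ran from 0.976% ± 0.233 (SD, n = 4) in Cacnb1 to 4.99% ± 0.526 in Cacna2d2, which lay at the 97.8th percentile of all genes. Cacna2d2 was the highest channel gene in all 8 animals. Cacnb1 was the lowest in 6 of them, with Scn3b lowest in hKO 046-2 and Cacna1f in hKO 047-1. The order of the 31 genes in a single hKO animal followed the order of the WT means with a Spearman rho of 0.866 to 0.981. In the WT animals it was 0.955 to 0.985, raised because each WT animal is part of those means. Across the 31 genes the WT and hKO means had a Pearson r of 0.983, and across 21056 genes 0.942. These are descriptions over genes measured in the same libraries.

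**Figure D2:**
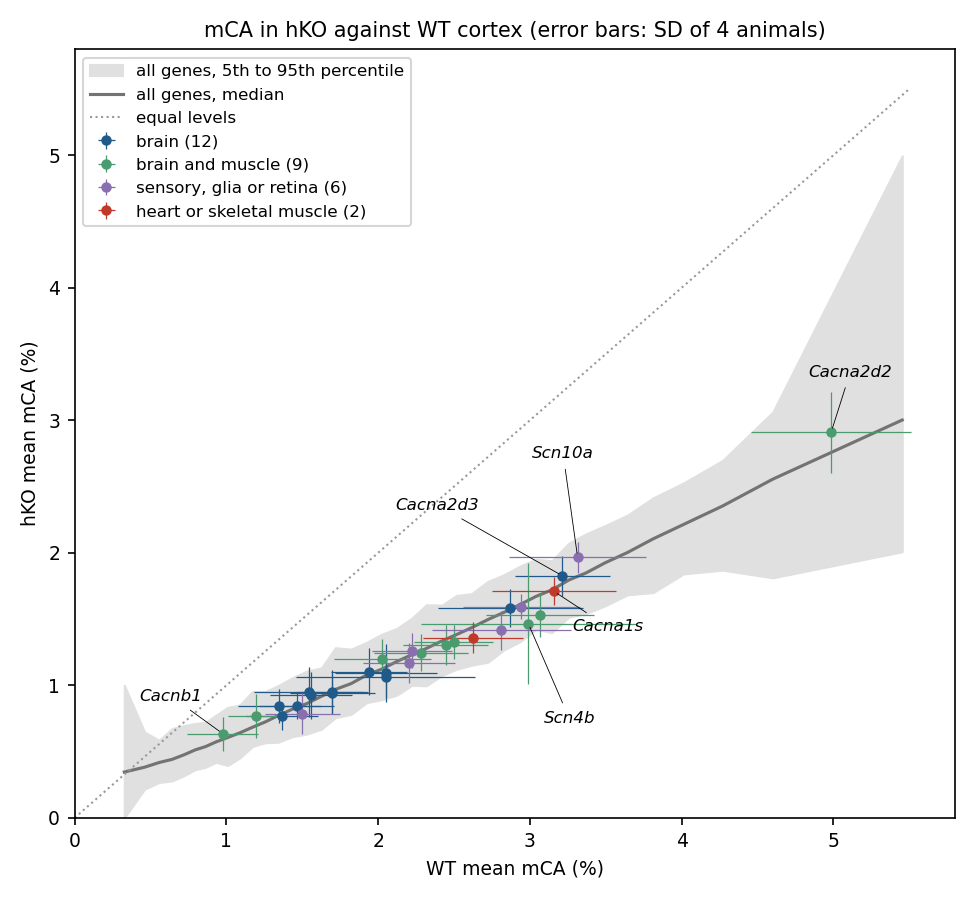
hKO mean mCA against WT mean mCA, in percent, of 29 of the 31 channel genes (points with SD of 4 animals, coloured by textbook main site), over the median (line) and the 5th to 95th percentile (band) of all genes at the same WT level. The points follow the line of all genes and lie under the dotted line of equal levels, from Cacnb1 at 0.976% in WT to Cacna2d2 at 4.99%.

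The stretch just before the start of 4 of these genes is printed to show how unlike their CG content is: the genes with the lowest and the highest WT mCA, a brain sodium channel gene and a skeletal muscle calcium channel gene. They were picked after their values were seen. Each is 250 bases ending at the base before the start, 5′ to 3′ on the gene's strand, from RefSeq on GRCm38.p6, with every CG in capitals. Where a gene had several listed starts, the 5′-most was used, and the others may differ in CG content.
Cacnb1 (chr11:98022628-98022877, - strand): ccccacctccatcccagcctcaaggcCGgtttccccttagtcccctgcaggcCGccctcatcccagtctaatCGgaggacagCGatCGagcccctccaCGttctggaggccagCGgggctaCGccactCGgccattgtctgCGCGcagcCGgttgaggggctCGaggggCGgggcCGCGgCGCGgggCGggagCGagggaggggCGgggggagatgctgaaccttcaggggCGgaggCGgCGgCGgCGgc
Cacna2d2 (chr9:107399630-107399879, + strand): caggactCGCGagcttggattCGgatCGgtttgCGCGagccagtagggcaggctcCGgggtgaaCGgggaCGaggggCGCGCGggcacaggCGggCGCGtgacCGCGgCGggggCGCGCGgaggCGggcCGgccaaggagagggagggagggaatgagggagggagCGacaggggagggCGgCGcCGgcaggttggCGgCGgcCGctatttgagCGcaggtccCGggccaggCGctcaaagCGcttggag
Scn1a (chr2:66440838-66441087, - strand): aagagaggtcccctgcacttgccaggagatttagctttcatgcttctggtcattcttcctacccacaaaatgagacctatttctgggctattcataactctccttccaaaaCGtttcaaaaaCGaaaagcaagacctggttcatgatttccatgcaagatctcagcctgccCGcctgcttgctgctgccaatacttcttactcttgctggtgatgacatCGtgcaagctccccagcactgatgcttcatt
Cacna1s (chr1:136052561-136052810, + strand): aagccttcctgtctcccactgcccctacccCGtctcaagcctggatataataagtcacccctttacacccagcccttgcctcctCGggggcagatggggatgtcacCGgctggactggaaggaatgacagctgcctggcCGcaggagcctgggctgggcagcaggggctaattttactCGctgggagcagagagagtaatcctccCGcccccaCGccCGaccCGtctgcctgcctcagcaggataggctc
The motif searched was CG, which reads the same on both strands. Cacnb1 holds 26, Cacna2d2 34, Scn1a 4 and Cacna1s 9 of them, and windows with as many or more make up 9.59%, 3.53%, 62.2% and 40.3% of the 32851 windows of the table. Those windows belong to 27025 genes, so some genes are counted there with several starts. A CG occurs in 92.1% of all windows and in every one of the 23 windows matched to channel genes, with a median of 6 and 8 per window. The lowest and the highest mCA thus both occur beside a start rich in CG. The methylation values were made on mm9 and were not placed on these coordinates.

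Among the 9 alpha subunits of sodium channels, all 9 were lower in hKO and all 9 had groups that did not overlap. Scn10a, a channel of sensory neurons, stood well above the median gene in WT cortex, and Scn8a, the channel of the axon initial segment and nodes of Ranvier, was lowest. In Scn10a the WT animals 695, 046-1, 651-3 and 047-2 held 3.00%, 3.07%, 3.98% and 3.20%, and the hKO animals 694, 046-2, 651-2 and 047-1 held 2.02%, 1.88%, 2.10% and 1.86%. Every hKO value lay well below the lowest WT value, and WT 651-3 was the highest. The difference was -1.35 points (SE 0.245, limma adjusted p = 0.00118). For Scn8a, in the same order of animals, values were 1.34%, 1.23%, 1.74% and 1.09% in WT and 0.794%, 0.868%, 1.01% and 0.710% in hKO. The groups were apart by less than 0.1 points there, with hKO 651-2 just under WT 047-2, and the difference was -0.504 points (SE 0.162, limma adjusted p = 0.0191).

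The other brain alpha subunits lay near Scn8a. Scn1a, the main sodium channel of fast-spiking inhibitory neurons and the gene of Dravet syndrome, held 1.56% ± 0.270 in WT and 0.925% ± 0.179 in hKO (SD, n = 4, limma adjusted p = 0.00854). Scn3a, which is most active before birth, held 1.70% ± 0.280 and 0.939% ± 0.149. Higher levels were found in genes of other tissues. Scn4a, the channel of skeletal muscle, held 2.62% ± 0.331 in WT and 1.36% ± 0.117 in hKO cortex. The channels of pain-sensing neurons spanned a range: Scn9a held 2.22% ± 0.264 and 1.26% ± 0.132, Scn11a 2.81% ± 0.460 and 1.41% ± 0.150, and Scn10a 3.31% ± 0.451 and 1.97% ± 0.116. Scn7a, a sodium sensor of glia and other cells that is little gated by voltage, held 2.20% ± 0.303 and 1.17% ± 0.150.

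Scn2a1, the table's entry for Scn2a, encodes the other main sodium channel of excitatory cortical neurons. It carried less mCA in WT cortex than any of the 31 members, at 0.721%, 0.703%, 1.14% and 0.665% in the WT animals and 0.559%, 0.530%, 0.698% and 0.438% in the hKO animals. The groups overlapped, because hKO 651-2 lay above WT 047-2. The difference of -0.251 points (SE 0.136) did not pass (limma adjusted p = 0.119, 95% interval -0.556 to 0.0538), and without WT 651-3 it was -0.140 points (limma adjusted p = 0.166).

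Several of these genes lie side by side on the chromosome, by the gene order of GRCm38.p6 in RefSeq. On chromosome 2, Scn3a neighbours Scn2a, and after 3 other protein-coding genes Scn1a, Scn9a and Scn7a follow each other. WT mCA along this run was 1.70%, 0.807%, 1.56%, 2.22% and 2.20%. On chromosome 9, Scn10a and Scn11a are neighbours with 3.31% and 2.81%. Genes from 1 run therefore did not share 1 level on chromosome 2, and Scn10a and Scn11a were both above the median gene. Scn2b and Scn4b, also neighbours on chromosome 9, lay below and above it, at 1.54% and 2.99%.

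The 4 beta subunits of sodium channels are small membrane proteins that set gating and anchor the channel. All 4 were lower in hKO, but the groups overlapped in 2, Scn2b among them. Scn4b, known for resurgent current in cerebellar and striatal neurons, was the highest of them in WT, with 2.47%, 2.43%, 3.12% and 3.94% in the WT animals and 1.52%, 1.54%, 1.95% and 0.854% in the hKO animals. It had the widest spread of all members in WT, and hKO 047-1 lay far below the other hKO animals. The difference was -1.52 points (SE 0.365, limma adjusted p = 0.00463), and Scn4b kept the smallest share of its WT level of all members, 49.1%. Scn3b was the lowest, with 1.08%, 1.09%, 1.47% and 1.14% in WT and 0.810%, 0.689%, 0.974% and 0.588% in hKO. There the highest hKO animal, 651-2, lay below the lowest WT animal, 695, with a difference of -0.428 points (SE 0.144, limma adjusted p = 0.0227).

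Scn2b held 1.54% ± 0.363 in WT and 0.952% ± 0.188 in hKO (SD, n = 4, limma adjusted p = 0.0229), and no longer passed without WT 651-3, WT 047-2, hKO 694 or hKO 046-2 (0.0528 to 0.0705). Scn3b was lost without hKO 046-2 or hKO 047-1 and Scn8a without hKO 694 or hKO 047-1 (0.0513 to 0.0713), while all these differences stayed negative. Scn2b and Scn4b are neighbours on chromosome 9, with WT means of 1.54% and 2.99%.

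The 4 alpha1 subunits of L-type calcium channels (Cav1) were all lower in hKO without overlap. Cacna1s, the voltage sensor for contraction of skeletal muscle, was the highest, with 3.04%, 2.86%, 3.76% and 2.97% in the WT animals and 1.57%, 1.70%, 1.82% and 1.75% in the hKO animals. All hKO animals lay within a narrow band far below WT, and the difference was -1.45 points (SE 0.227, limma adjusted p = 0.000736). Cacna1f, the L-type channel of photoreceptors and an X-linked gene, was the lowest, with 1.63%, 1.57%, 1.67% and 1.14% in WT and 0.768%, 0.877%, 0.924% and 0.580% in hKO. WT 047-2 was the low WT animal and hKO 047-1 the low hKO animal, both female, and the difference was -0.714 points (SE 0.159, limma adjusted p = 0.00316). Between them lay Cacna1c, the L-type channel of heart and of most brain neurons, at 2.28% ± 0.310 in WT and 1.25% ± 0.142 in hKO. Cacna1d, the L-type channel of pacemaker cells, hair cells and neurons, held 2.50% ± 0.260 and 1.33% ± 0.128.

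The alpha1 subunits of the presynaptic calcium channels (Cav2), which trigger transmitter release, had the lowest mCA of the pore-forming groups, and all 3 were lower in hKO without overlap. Cacna1b, the N-type channel, held 1.22%, 1.25%, 1.72% and 1.27% in the WT animals and 0.757%, 0.748%, 0.909% and 0.653% in the hKO animals. Cacna1e, the R-type channel, was the highest of the group with 1.59%, 1.55%, 2.05% and 1.58% in WT and 0.947%, 0.855%, 1.18% and 0.812% in hKO. In both genes WT 651-3 stood above the other WT animals, which lay close together. The differences were -0.601 points (SE 0.149, limma adjusted p = 0.00547) for Cacna1b and -0.745 points (SE 0.163, limma adjusted p = 0.00292) for Cacna1e. Cacna1a, the P/Q-type channel, lay between them at 1.46% ± 0.248 in WT and 0.844% ± 0.0971 in hKO.

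The T-type channels (Cav3) open near the resting potential and underlie burst firing. All 3 were lower in hKO without overlap. Cacna1h was the highest, with 2.95%, 2.92%, 3.59% and 2.81% in the WT animals and 1.46%, 1.60%, 1.73% and 1.34% in the hKO animals, a difference of -1.54 points (SE 0.214, limma adjusted p = 0.000692). The groups stood more than a point apart, and Cacna1h kept 49.9%. Cacna1i, found mainly in brain, was the lowest, with 1.97%, 1.76%, 2.54% and 1.94% in WT and 1.12%, 1.17%, 1.30% and 0.787% in hKO. hKO 047-1 was the low hKO animal, and the difference was -0.958 points (SE 0.202, limma adjusted p = 0.00239). Cacna1g, the T-type channel of thalamic relay neurons, held 2.87% ± 0.477 in WT and 1.58% ± 0.143 in hKO.

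The alpha2delta subunits are extracellular proteins that bring calcium channels to the surface; those of Cacna2d1 and Cacna2d2 bind gabapentin. All 4 genes were lower in hKO without overlap, and this role group had the highest median in WT, 3.08%. Cacna2d2 held 4.68%, 4.80%, 5.77% and 4.70% in the WT animals and 2.78%, 2.66%, 3.35% and 2.84% in the hKO animals. It lost the most points of all members, -2.08 (SE 0.336, limma adjusted p = 0.000792), yet kept 58.4%, and its hKO mean was still above the WT median of all genes. Cacna2d1 was the lowest of the group, with 1.91%, 1.74%, 2.48% and 1.98% in WT and 1.15%, 1.13%, 1.42% and 1.11% in hKO. hKO 651-2 stood above the other hKO animals, which lay together, and the difference was -0.826 points (SE 0.188, limma adjusted p = 0.00354). Cacna2d3, a mainly brain subunit, held 3.21% ± 0.316 in WT and 1.83% ± 0.149 in hKO, and Cacna2d4, the subunit of the retina, 2.94% ± 0.385 and 1.59% ± 0.0927.

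The beta subunits lie in the cytoplasm, bind the alpha1 subunit and carry it to the membrane. Of the 4, 3 were lower in hKO without overlap, and Cacnb1, the subunit of skeletal muscle that brain also uses, did not pass. Cacnb1 held 0.818%, 1.05%, 1.27% and 0.765% in the WT animals and 0.482%, 0.796%, 0.612% and 0.651% in the hKO animals. hKO 046-2 lay above WT 047-2, so the groups overlapped, and the difference of -0.340 points (SE 0.144, 95% interval -0.664 to -0.0166) had a limma adjusted p = 0.0563. Without WT 047-2 it passed, at -0.411 points (limma adjusted p = 0.0352). Cacnb2, the main beta subunit of heart, was the highest, with 2.31%, 2.30%, 2.87% and 2.31% in WT and 1.24%, 1.26%, 1.53% and 1.19% in hKO. WT 651-3 stood alone above 3 WT animals that were almost equal, and the difference was -1.14 points (SE 0.184, limma adjusted p = 0.000784). Cacnb3 held 2.05% ± 0.588 in WT, with WT 047-2 far above the others at 2.90%, and 1.06% ± 0.148 in hKO, and Cacnb4 1.94% ± 0.250 and 1.10% ± 0.177.

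Brain, heart and muscle genes of both families were then set side by side, using 4 classes by textbook main site. Sorted this way, 12 genes are mainly of brain (Scn1a, Scn3a, Scn8a, Scn2b, Cacna1a, Cacna1b, Cacna1e, Cacna1g, Cacna1i, Cacna2d3, Cacnb3 and Cacnb4), 3 of heart or skeletal muscle (Scn4a and Cacna1s among them), 10 of both, and 6 of sensory neurons, glia or retina. In the WT animals 695, 046-1, 651-3 and 047-2 the median brain gene held 1.56%, 1.57%, 2.02% and 1.71% mCA, and the median muscle gene 3.04%, 2.86%, 3.76% and 2.99%. In the hKO animals 694, 046-2, 651-2 and 047-1 these medians were 0.934%, 0.867%, 1.18% and 0.819% for brain and 1.57%, 1.70%, 1.82% and 1.75% for muscle genes. The muscle median was the higher one in all 8 animals. With 3 genes in the muscle class, its median was the value of Cacna1s in every animal but WT 047-2, where it was that of Scn4a. The comparison thus rests largely on 1 muscle gene. The gap was 1.45 ± 0.217 points in WT and 0.759 ± 0.147 in hKO (SD, n = 4 each), and the muscle level divided by the brain level was 1.84 ± 0.0833 and 1.83 ± 0.269. So the gap in points was smaller in every hKO than in every WT animal, while the mean ratio was nearly the same; this was described, not tested, because the classes and genes were chosen with results known.

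The separation was broad but not complete. In WT 695, 11 of the 12 brain genes lay below the lowest muscle gene and in each of the other 7 animals 10 did. Cacna2d3 was the brain gene with the highest WT mean, 3.21% ± 0.316, above Cacna1s and Scn4a, and Cacna1g at 2.87% ± 0.477 was above Scn4a. Genes of both sites had medians of 2.36 ± 0.287% in WT and 1.27 ± 0.141% in hKO, and those of sensory neurons, glia or retina 2.52 ± 0.346% and 1.34 ± 0.139%. With all genes at 2.05 ± 0.254% and 1.13 ± 0.133%, the brain class was under and the other classes over the median gene in both genotypes. The brain class kept a median of 56.4% and the muscle class 53.7% of WT mCA. Genes marking neurons had a median WT mCA of 1.69% (8 genes, 0.858% in Snap25 to 5.33% in Neurod6), and those marking astrocytes 4.36%, oligodendrocytes 2.88%, microglia 2.67% and endothelium 3.15% (4 of 5 genes measured). The part of cell types in the order of the channel genes was not tested.

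**Figure D3:**
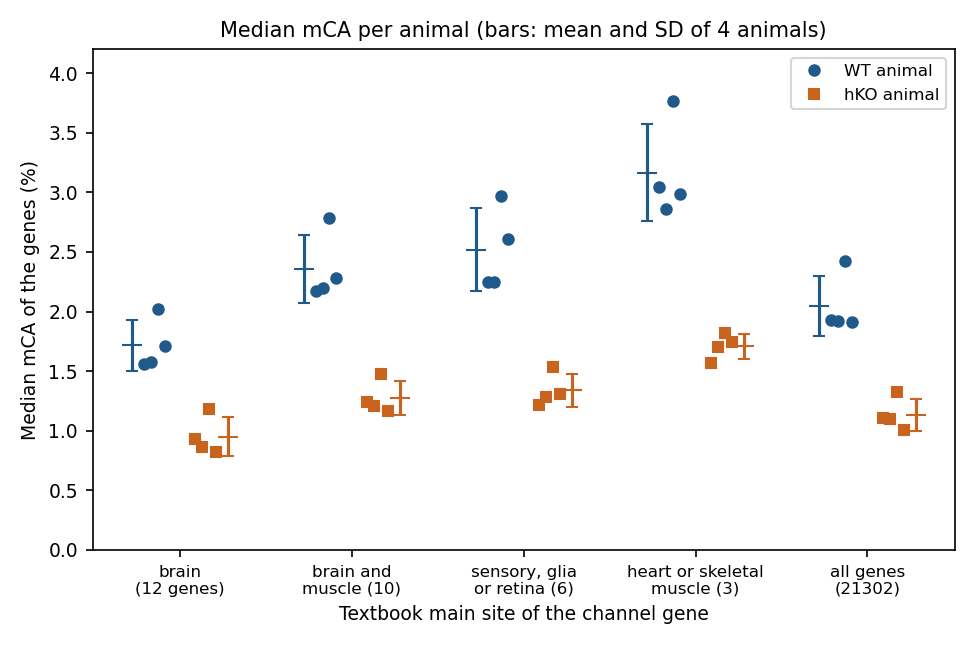
Median mCA in percent (vertical axis, from 0) of the channel genes of each textbook class and of all genes (horizontal axis), 1 point for each animal, with the mean and SD of the 4 animals of each genotype. The median of the muscle genes lies above that of the brain genes in every animal, by 1.45 points on average in WT and 0.759 in hKO.

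Whether any channel gene lost a larger or smaller share than the median gene was asked on a log2 scale relative to each library's median (log2 of percent plus 0.1). None of the 31 passed after adjustment in limma, against 0.00469% of genes that were lower and 0% that were higher. At an unadjusted p under 0.05 there was 1 member, against 7.81% of all genes: Cacna1h, at -0.16 (95% interval -0.28 to -0.04, limma adjusted p = 0.639). The estimates lay below the median gene in 15 members and above it in 16. They ran from -0.21 in Scn4b to 0.26 in Cacnb1, and the 95% intervals reached -0.70 in Scn4b and 0.68 in Cacnb1. Scn2a1, outside the 31, was at 0.34 (0.05 to 0.63, limma adjusted p = 0.639). A difference in the share lost was therefore not detected for any single channel gene, and the wide intervals of Scn4b, Scn2b, Cacnb1 and Cacnb3 leave room for moderate ones.

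**Figure D4:**
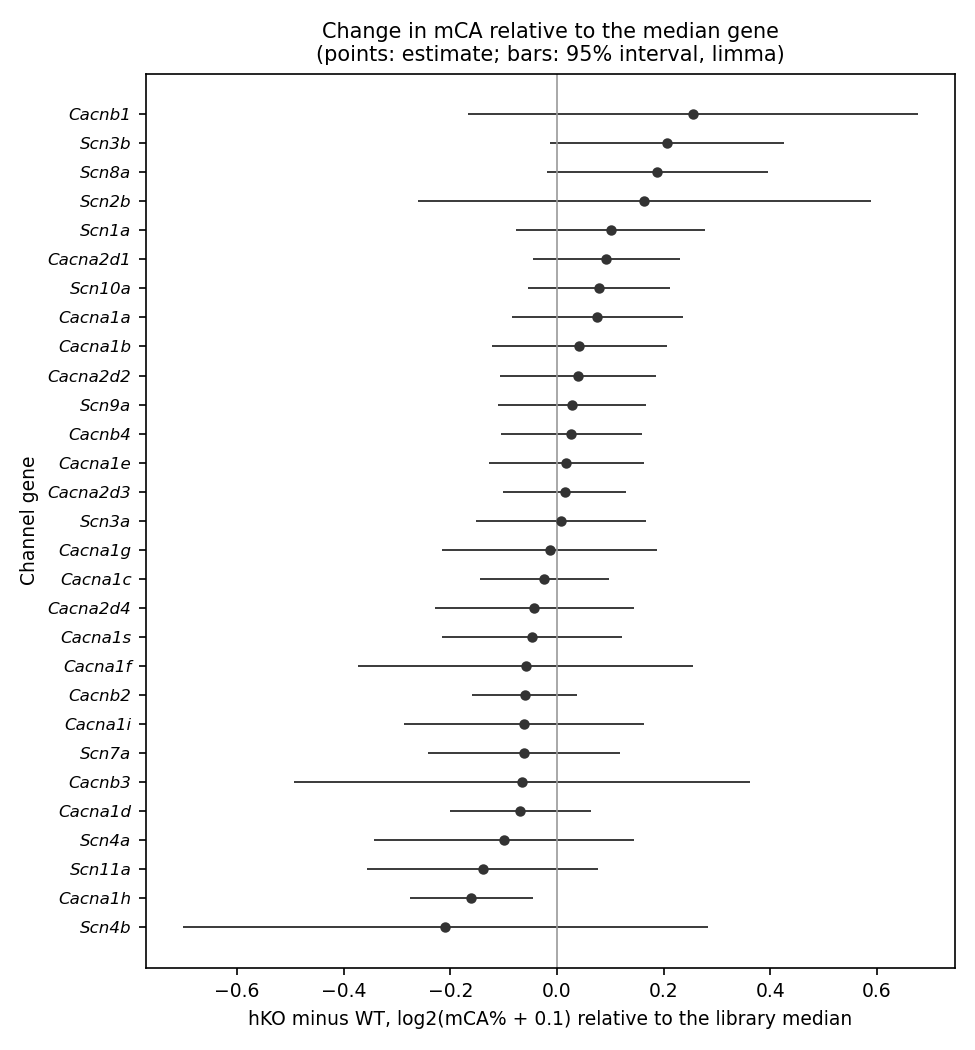
Change of 29 of the 31 channel genes (vertical axis) in hKO relative to WT, on the log2 scale relative to the library's median gene (horizontal axis), with the 95% interval from limma. The points scatter about 0 from -0.21 to 0.26, and only the interval of Cacna1h does not include 0, before adjustment.

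The share kept went down with the WT level across the 31 genes (Pearson r -0.425), as it did across 21018 genes (-0.282). The WT mean is the divisor of the share, so noise in that mean makes this correlation more negative. Cytosines at CC sites are rarely methylated in mammals, so their level was taken as a rough upper estimate of unconverted or miscalled bases. In shallow libraries of 8-week cortex this CC level was 0.362% ± 0.0602 in WT (SD, n = 11) and 0.267% ± 0.0599 in hKO (SD, n = 7). Its mean was lower in hKO, and what part of it was real methylation was not tested, so subtracting it can also remove signal. With the CC level subtracted, an addition chosen after seeing the data, the Pearson r was -0.194 across the members and -0.0161 across 21056 genes. The Spearman rho was -0.267 and -0.0851. Genes with WT mCA near the CC level were not left out of the 21056. Their shares are unstable, so the Pearson r over all genes says little. The brain and muscle classes then kept medians of 52.4% and 51.6%, and Scn4b kept 45.7%. The CC level comes from other libraries than the genes, and genes are not independent replicates.

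mCG showed no change that passed the test. None of the 31 channel genes was called lower or higher, and neither was any other of the 21060 genes (0% in each direction by limma); the lowest adjusted p among the members was 0.476. At an unadjusted p under 0.05 there were 4 members (Cacnb1, Cacna1h and Cacna1s among them), against 10.4% of all genes. The mean was lower in hKO in 30 of 31 genes and in 84% of all genes, the exception being Cacnb3, at 56.8% ± 3.76 in WT and 58.3% ± 2.73 in hKO (SD, n = 4). Groups did not overlap in 4 (Scn2b, Cacna1g and Cacnb1 among them), against 4.94% of genes. The median channel gene held 75.7% in WT and 72.6% in hKO, and the median over all genes was 79.4% and 77.1%.

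**Figure D5:**
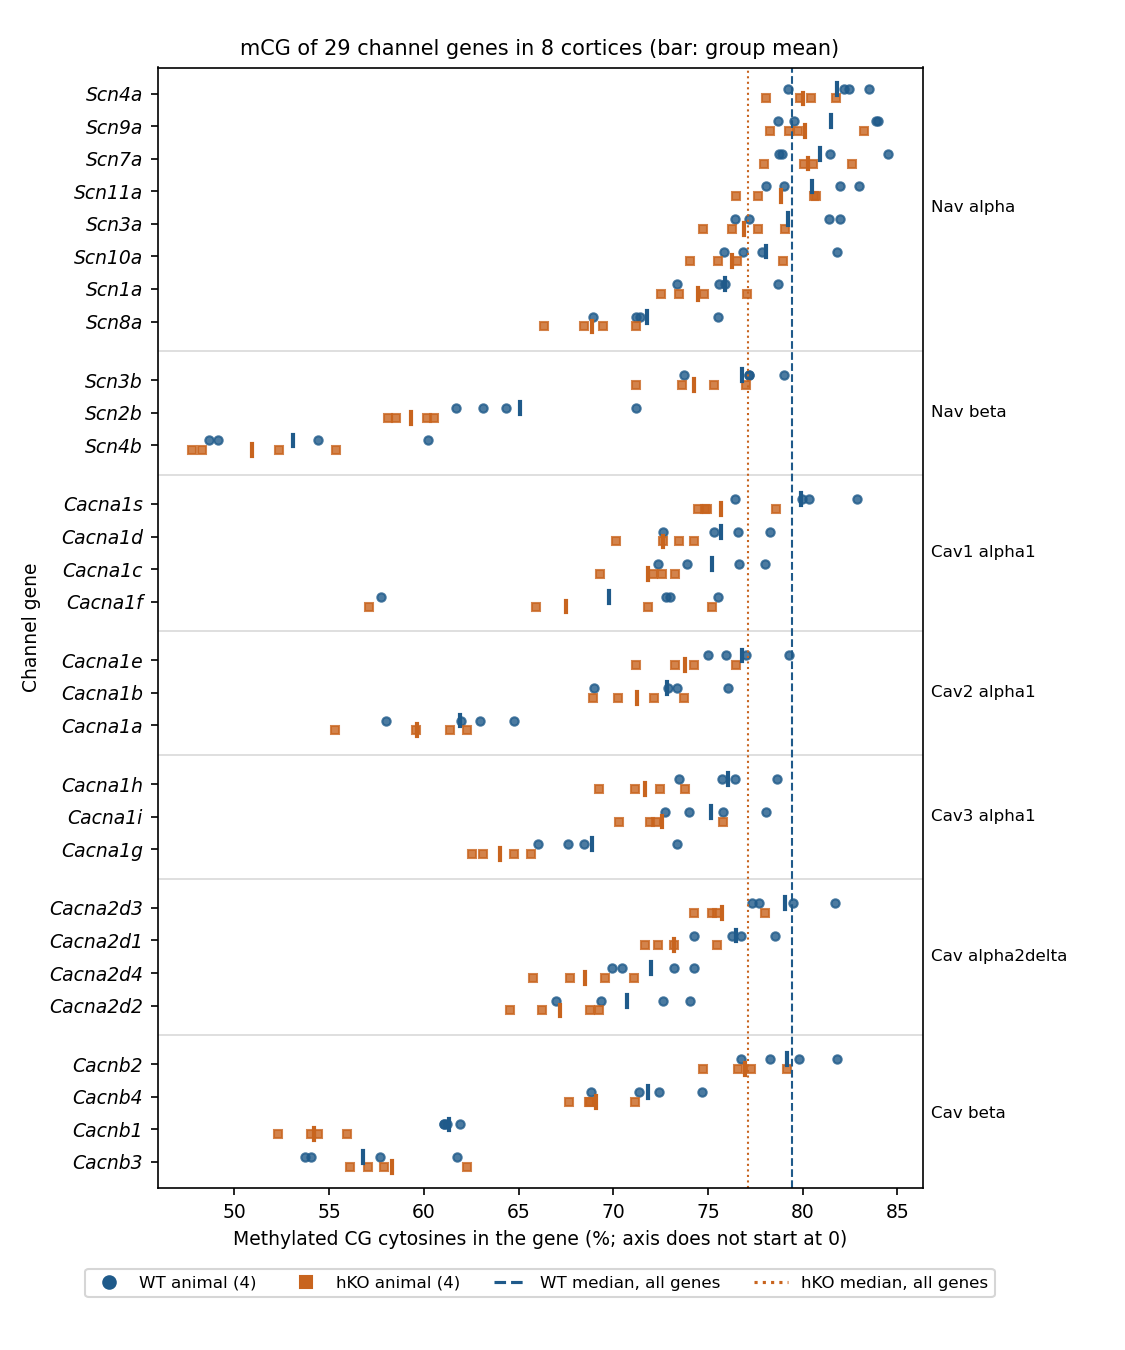
mCG in percent (horizontal axis, which does not start at 0) of 29 of the 31 channel genes (vertical axis, by role and WT mean) in the 4 WT (circles) and 4 hKO animals (squares), with bars at the group means and vertical lines at the median of all genes. Most circles and squares overlap, and 24 of the 29 genes have WT means left of the WT line at 79.4%.

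The mCG genes named next were chosen after their values were seen. In Cacnb1 the WT animals held 61.1%, 61.9%, 61.1% and 61.2% and the hKO animals 54.4%, 52.3%, 54.1% and 55.97%. The WT values were almost equal and all above the hKO values, and the difference of -7.14 points (SE 2.21) had a limma adjusted p = 0.476. Cacnb1 had overlapping groups in mCA. Across the 31 members the mCA and mCG differences had a Pearson r of -0.154 and a Spearman rho of -0.00726, and across 21056 genes of 0.254 and 0.352. Cacna1f varied most. Its WT animals held 72.8%, 57.7%, 75.5% and 73.0% and its hKO animals 57.1%, 65.9%, 71.8% and 75.2%, and 3 of the 4 males lay below every female.

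Levels of mCG also separated the members in WT. Scn4b was lowest at 53.1% ± 5.40 and Scn4a highest at 81.8% ± 1.83 (SD, n = 4). Only 5 channel genes were above the median gene in mCG (Scn4a, Scn9a, Scn7a, Scn11a and Cacna1s), against 16 in mCA. Median mCG of the muscle class exceeded that of the brain class by 7.27 ± 0.590 points in WT and 5.91 ± 0.334 in hKO. In WT the class medians averaged 72.4% for brain, 75.4% for both sites, 79.7% for muscle and 79.2% for sensory neurons, glia or retina. In hKO they were 70.2%, 71.7%, 76.1% and 77.4%, in that order. The median gene was at 79.4% and 77.1%, so the brain class was under it and the muscle class near it. The muscle median is again the value of a single gene in each animal. The authors' columns per kilobase divided by their fractions give a relative density of CG sites. WT mCG went down with it across the 31 genes (Pearson r -0.520, Spearman rho -0.531). Across 21047 genes the Pearson r was -0.435 and the Spearman rho -0.146, so by rank the relation was weak over all genes. mCA and mCG levels were only weakly related across the members (Pearson r 0.208). These are descriptions over genes that share libraries.

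One animal of each genotype ran high throughout. WT 651-3 had the highest mCA of the WT animals in 28 of 31 channel genes and hKO 651-2 the highest of the hKO animals in 27, and the same counts held for mCG. Their median over all genes was 2.43% and 1.32% mCA, against 1.91% to 1.93% and 1.01% to 1.11% in the other animals of their genotype. Without WT 651-3, 29 channel genes were lower by limma, and without hKO 651-2 also 29. Both are female, and in the labels sex coincides with the sequencing instrument, balanced over genotype. In males alone 28 channel genes were lower, against 63.4% of all genes, and in females alone 15, against 36.8%. The genotype difference was smaller in males in 29 of 31 genes, but its dependence on sex passed for none of the 31 (limma interaction, 0.00939% of all genes) and for 0 at an unadjusted p under 0.05 (3.41% of all genes).

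Genes for the partners of these channels were counted beside all genes, of which 72.1% were lower in mCA. Of 16 listed partners of sodium channels 15 were measured and 12 were lower in mCA, and of 21 partners of calcium channels 19 were lower, with none higher in either list and none called in mCG. Fgf11, from the family of intracellular growth factor homologues that bind sodium channels, was the highest of the first list at 3.29% ± 1.02 in WT and 1.66% ± 0.664 in hKO (limma adjusted p = 0.0173). Calm2, a gene for calmodulin, was the lowest at 0.659% ± 0.296 and 0.487% ± 0.259 and did not pass (limma adjusted p = 0.401); Calm3 did not either. In the second list Gem, a small GTPase that blocks calcium channels, was the highest at 4.93% ± 1.14 in WT and 3.01% ± 0.332 in hKO (limma adjusted p = 0.00929). Snap25, a protein of the release machinery, was the lowest at 0.858% ± 0.210 and 0.513% ± 0.124 (limma adjusted p = 0.0420). Rrad and Stx1a were the calcium channel partners that did not pass.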

How the data were processed

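Fractions of methylated cytosines per gene in 8 deep cortex libraries were used as the authors deposited them. A second deposited table gave the fraction at CC sites in shallow libraries, and the authors' columns per kilobase (a signal per length) were used only for CG density. BS-Seeker2, bedtools and mm9 are named per the submitters' processing notes; versions, filters and the part of each gene covered are not given in the sources used here. Fractions were multiplied by 100. The authors' 8 columns of group values entered no test, and CG density was computed from WT group values alone.

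Genes with values in all 8 libraries were tested, hKO against WT, with limma 3.58.1 (eBayes with a trend, R 4.3.3) and Benjamini-Hochberg adjustment over all of them, threshold 0.05. The relative test used log2 of percent plus a pseudocount of 0.1, less the library median. Share kept is the hKO mean over the WT mean. The members, lists and classes were chosen with earlier results of these data known. Values in all animals are given for the highest and lowest WT mCA of each role group, the extremes of share kept and members that did not pass; partner genes are the highest and lowest of each list. Gene symbols are those of the table. Some genes that these rules name are not reported here. In simulated data limma recovered 33 of 100 halved and 37 of 100 doubled mCA values over 21302 genes with 5 other calls. For relative mCA it recovered 25 and 30 with 1 other call. For mCG over 21060 genes it recovered 71 of 100 lowered to 0.8 and 83 of 100 raised 1.25-fold with 12 other calls. The simulated noise was drawn for each gene alone from its raw spread between animals, in which shifts of whole libraries are included. Alternatives were a logit scale, no variance trend, sex as covariate, a replicate block, library medians subtracted, animals left out, each sex, a looser filter, pseudocounts of 0.05 and 0.2, and scaling by the library mean; subtraction of the CC level and addition of Scn2a1 were chosen after seeing the data. P-values measure the spread between animals.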

Additional observations from a re-analysis of the deposited data

Results flagged for a closer look

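Single animals that stood apart from 3 close values of their genotype were looked for in 29 of the 31 genes, in both contexts and both genotypes. In 116 groups of 4 values 7 were found. The rule flags about 1 in 20 independent groups by chance, but these groups share the same 8 libraries, so that rate cannot be used to judge the count. WT 651-3 was the high animal for mCA in Cacna1b (1.72%, others 1.22% to 1.27%), Cacna1e (2.05%, others 1.55% to 1.59%), Cacna2d2 (5.77%, others 4.68% to 4.80%) and Cacnb2 (2.87%, others 2.30% to 2.31%). hKO 651-2 was the high animal for mCA in Cacna2d1 (1.42%, others 1.11% to 1.15%) and for mCG in Cacna1s (78.6%, others 74.4% to 74.9%). These 6 belong to the animals whose library medians were also the highest of their genotype, so they are not 6 separate events. WT 046-1, a male, was the low animal for mCG of the X-linked gene Cacna1f (57.7%, others 72.8% to 75.5%). The causes were not tested.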

How the results depend on the processing

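The count of channel genes lower in mCA was 30 as reported and stayed 30 on a logit scale, without a trend in the variance, with sex as covariate and with genes measured in at least 3 animals of each group. It was 27 to 30 with each animal left out in turn, 28 in males alone and 15 in females alone. With each library's median subtracted 10 were lower and 7 higher, and genes that turned positive, in points, included Cacna1a (0.292), Cacna1b (0.310), Cacna1e (0.166), Cacna1f (0.197), Cacna2d1 (0.0851), Cacnb1 (0.571), Cacnb4 (0.0705), Scn1a (0.278), Scn2b (0.320), Scn3a (0.153), Scn3b (0.483), Scn8a (0.407) and Scn2a1 (0.660); Scn2a1 is outside the 31. That setting takes the same number of points from every gene, whatever its level. No member was called under any alternative tried for mCG or for relative mCA. The mCG difference of Cacnb3, 1.52 points in all animals, was -0.545 in females alone and 0.208 to 3.18 with each animal left out. The gap between the medians of muscle and brain genes in mCA was 1.35 to 1.50 points in WT and 0.702 to 0.801 in hKO with each animal left out.

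The 3 pairs of WT and hKO animals that share a number (046, 047 and 651) deviated together only weakly. Their correlations over genes were 0.0369 to 0.114 in mCA and 0.0845 to 0.120 in mCG. In mCG each of these animals correlated best, among animals of the other genotype, with its own number. The same held in mCA, except that hKO 651-2 correlated better with WT 695. The labels do not say that numbers mark litters. With the number as replicate block, and with WT 695 and hKO 694, which share none, as the remaining block, 31 members were lower in mCA (Cacnb1 added, limma adjusted p = 0.0348), 0 in mCG and 0 in relative mCA, and Scn2a1 was lower as well (limma adjusted p = 0.0336).

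Without counts, values of short genes cannot be weighted. An isolated halving of mCA was mostly missed in simulated data, whose noise held the shifts of whole libraries as if they were separate for each gene. The relative test takes such shifts away in the real data, so the simulation cannot give its power there. Its median SE in the real data was 0.0764 on the log2 scale in the members and 0.134 over all genes.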
